A study of Mus musculus with 3 samples.

Results

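The chromatin fraction of lipid A-treated mouse macrophages contained RNA counted to 498 antisense noncoding genes. A gene was taken where at least 1 of its annotated transcripts had the class antisense and none was protein-coding, and where each of the 3 libraries held at least 10 expected counts for it. Airn, Kcnq1ot1, Tsix and genes with a symbol starting with Snhg were left out. The annotation listed 3082 such antisense genes among 55536 mouse genes, so 16.2% of them passed, beside 12167 genes of any class that passed the same minimum. The counts themselves chose the members, so their number and levels are a description without a test. The cells were macrophages derived from the bone marrow of C57BL/6J mice and exposed to 100 ng/ml lipid A for 50 min. Lipid A is the part of lipopolysaccharide that activates Toll-like receptor 4 (TLR4). RNA of the chromatin fraction had been depleted of ribosomal RNA and sequenced as 3 libraries, labelled biological replicates 1, 2 and 3, which form 1 group. They carry the same donor code and were made from 1 ug, 250 ng and 500 ng of RNA, so the spreads below may be partly technical, and no untreated cells or other fractions were analysed here.

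Antisense genes are transcribed from the strand opposite another gene, often a protein-coding one. Some such RNAs are known to act on the gene they overlap, through the act of transcription or by recruiting chromatin factors, while for most no function has been assigned. Chromatin-bound RNA is rich in nascent transcripts, so introns of coding genes are read alongside mature exons. The strand setting used in counting is not given in the sources used here. Without it, reads of an antisense gene and of the coding gene across from it cannot be told apart where their bodies overlap, and this holds for every level below. Measurements that bear on this are given with the levels.

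Promoters of 4 members are shown because their coding partners are an NF-kB response gene (Il1bos, Gm16174) or because they are among the 12 most abundant members (Gm29083, F630028O10Rik). The promoter of Gm26885, whose partner Pim1 is also an NF-kB response gene, is not printed. No match to the motifs counted below was found in Il1bos or Gm26885, and no NF-kB consensus in Gm16174. Each runs from 250 bases before to 50 after the start that RefSeq annotates on GRCm38.p6, 5′ to 3′ on the member's strand. In Il1bos, chr2:129369652-129369951 on the plus strand, the capitals mark the annotated first exon of 25 bases, which lies inside an exon of 1 of the 3 annotated Il1b transcripts. In Gm16174, chr7:19816335-19816634 on the plus strand, they mark GAGGAAGT, a motif of the macrophage factor PU.1. In Gm29083, chr1:62718138-62718437 on the minus strand, they mark 2 matches to TTGCNNAA, a motif of C/EBP factors, the first on the printed strand and the second on the other. In F630028O10Rik, chrX:96239676-96239975 on the plus strand, they mark a match to the interferon element on the other strand.
Il1bos: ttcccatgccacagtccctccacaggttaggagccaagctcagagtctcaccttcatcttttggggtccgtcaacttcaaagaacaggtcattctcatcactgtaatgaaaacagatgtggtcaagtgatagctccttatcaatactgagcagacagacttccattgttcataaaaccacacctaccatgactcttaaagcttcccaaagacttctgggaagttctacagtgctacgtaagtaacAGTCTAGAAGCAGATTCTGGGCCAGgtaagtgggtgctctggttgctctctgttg
Gm16174: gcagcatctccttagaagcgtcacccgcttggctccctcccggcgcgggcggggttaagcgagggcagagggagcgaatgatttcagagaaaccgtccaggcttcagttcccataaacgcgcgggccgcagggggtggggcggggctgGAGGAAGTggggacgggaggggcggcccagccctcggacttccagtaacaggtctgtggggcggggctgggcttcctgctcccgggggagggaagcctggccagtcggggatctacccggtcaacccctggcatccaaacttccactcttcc
Gm29083: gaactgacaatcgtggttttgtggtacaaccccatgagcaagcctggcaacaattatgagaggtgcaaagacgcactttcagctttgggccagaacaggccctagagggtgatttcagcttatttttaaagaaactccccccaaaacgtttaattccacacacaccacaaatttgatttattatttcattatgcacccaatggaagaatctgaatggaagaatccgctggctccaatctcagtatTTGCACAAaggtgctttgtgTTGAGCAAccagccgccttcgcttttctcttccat
F630028O10Rik: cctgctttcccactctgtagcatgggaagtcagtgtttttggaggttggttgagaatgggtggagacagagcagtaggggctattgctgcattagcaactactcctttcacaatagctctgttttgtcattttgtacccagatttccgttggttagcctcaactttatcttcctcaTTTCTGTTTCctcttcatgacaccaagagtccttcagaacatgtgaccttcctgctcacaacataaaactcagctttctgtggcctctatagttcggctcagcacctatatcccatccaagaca

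A RefSeq promoter of the same symbol, chromosome and strand was found for 186 members, and for 132 of them its start lay within 500 bases of the annotated gene start, at the same base in 67. Motifs were searched on both strands of these 132 windows of 300 bases and of all 32817 promoters in the table. The NF-kB consensus was found in 16 member promoters (12.1%, against 8.46% of all promoters). The AP-1 motif TGANTCA was found in 10 (7.58%, against 7.81%), and TTGCNNAA in 13 (9.85%, against 10.8%). TATAAA was found in 10 (7.58%, against 13.6%). PU.1 and interferon-element matches were found in 3 member promoters each (2.27%, against 3.20% and 3.43% of all promoters), and the CRE motif TGACGTCA in 0, against 1.79%. A CpG content of at least 0.6 of that expected from base composition was found in 34.8% of member promoters and 35.8% of all. A match describes letters in a window and shows no binding, and TATAAA and the other motifs can overlap.

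Where member and partner exons lie over one another, each strand holds the reverse complement of the other, as these stretches from GENCODE M21 transcripts on GRCm38 show. The first pair is the whole overlap of 28 bases of Gm47009 with Irak3, chr10:120170318-120170345, which lies in an exon of all 5 annotated Irak3 transcripts. The second is 69 bases of Gm37787 over the coding sequence of Slamf7, chr1:171634928-171634996, in an exon of 3 of the 5 annotated Slamf7 transcripts. The third is 106 bases of Gm26626 over the coding sequence of Runx1, chr16:92613599-92613704, in an exon of 3 of the 7 annotated Runx1 transcripts. In each case the member is on the plus strand, the coding gene is on the minus strand, and both are written 5′ to 3′.
Gm47009: aggagtagaacttccagttctgataaaa
Irak3: ttttatcagaactggaagttctactcct
Gm37787: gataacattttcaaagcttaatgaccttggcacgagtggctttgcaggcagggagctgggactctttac
Slamf7: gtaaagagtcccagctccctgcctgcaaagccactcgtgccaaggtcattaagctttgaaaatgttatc
Gm26626: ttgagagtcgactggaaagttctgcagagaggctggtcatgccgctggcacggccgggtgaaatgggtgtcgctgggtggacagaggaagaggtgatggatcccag
Runx1: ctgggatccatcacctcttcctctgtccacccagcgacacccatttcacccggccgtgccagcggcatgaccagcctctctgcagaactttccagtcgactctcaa

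The libraries held 10496703, 17687379 and 14806118 expected counts over mouse genes in replicates 1, 2 and 3. The tables hold no molecular identifiers, so counting error is only a lower limit on the error of any value. Of 10 macrophage markers, 10 were detected, from 1.88 to 179 TPM (transcript abundance scaled to the same total in each library, a level per length), with sums of 763, 731 and 760 TPM by library. Cx3cr1 was not among these markers. It is on the longer macrophage identity list used below, where 24 of 25 genes were detected, and was at 0.04, 0.04 and 0 TPM. Of the other cell types, T cell markers were detected for 1 of 5 (Cd4), with Cd3d, Cd3e and Cd3g at 0, and endothelial markers for 1 of 3 (Kdr). No marker passed among 4 of B cells, 5 of neutrophils, 5 of fibroblasts and 3 of erythroid cells, and summed levels of each of these 4 lists ranged from 0 to 1.02 TPM. In bulk RNA, fewer cells of a type and less RNA per cell cannot be told apart.

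Most members are little-studied loci. Of the 498, 308 have a provisional Gm symbol, 118 a Rik symbol, 22 a clone-based symbol and 37 a symbol of the "os" form, meaning opposite strand of the gene named. The annotated gene class was antisense for 463 and processed transcript for 35. The median member had 2 exons and 2015 exonic bases, 55 had a single exon, and 319 had 1 annotated transcript. Of all 3082 antisense genes of the annotation, 1491 were listed at 0 in all 3 libraries.

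Members were transcribed at low levels as a rule. Their median level was 3.13, 1.80 and 2.45 TPM in replicates 1, 2 and 3, a mean of 2.46 ± 0.668 (SD, n = 3). By their mean over libraries, the middle 50% of members lay between 1.07 and 7.13 TPM, 87 reached 10 TPM, 2 reached 100 TPM and 115 were below 1 TPM. The median member, at 2.53 TPM, lay beside 2.42 TPM in 285 lincRNA genes, 2.99 TPM in 903 TEC loci (a class of loci that awaits experimental support) and 4.87 TPM in the protein-coding genes that passed the same minimum. Together the members took up 0.811%, 0.477% and 0.537% of the expected counts in replicates 1, 2 and 3 (0.608% ± 0.178, SD, n = 3). The 10 members with the most counts held 32.6% of the members' counts, so a few loci carried much of the signal.

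The members nearest the minimum show how thin the evidence is at the lower end. Just inside were 1700058P15Rik, with 25, 31 and 10 expected counts in replicates 1, 2 and 3, and Gm17058, with 10, 11 and 12. Also just inside were 4933439K11Rik, 6330562C20Rik and Gm15346, each with 10 counts in its lowest library. Just outside were Gm37756, with 9.97, 58.3 and 29.2 counts, and AC121821.3, with 16.7, 9.73 and 9.80. D730005E14Rik, Gm17039 and Gm2788 also fell just outside, with 9.70, 9.36 and 9.19 counts in the lowest library. A lower or higher minimum therefore moves membership by loci of a few counts.

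Gm40578 was the most abundant member. It runs along chr12:111450405-111500840 on the minus strand and overlaps the 3′ part of Tnfaip2, a gene induced by tumour necrosis factor and by lipopolysaccharide. Gm40578 was at 331, 276 and 338 TPM in replicates 1, 2 and 3 (315 ± 34.0, SD, n = 3), the narrowest relative spread among the 12 most abundant members. Tnfaip2 was at 2905, 1643 and 2201 TPM, so the coding gene was 7.15-fold higher on average and higher in every library. Of the exonic bases of Gm40578, 29.4% lie over Tnfaip2 exons, and its body also spans a second coding gene on its own strand, with which it shares no exonic base.

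4933423P22Rik came next in level and had the most counts of all members. It lies at chr2:90479236-90488425 on the plus strand, inside Ptprj, which encodes a receptor-type tyrosine phosphatase, and none of its exonic bases lie over coding exons. It reached 212, 94.5 and 147 TPM (8495, 6892 and 7273 expected counts) in replicates 1, 2 and 3, against 96.9, 30.8 and 47.1 TPM for Ptprj. The member was above its host in each library, 2.59-fold on average. Both genes were highest in replicate 1 and lowest in replicate 2.

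AC119228.1 lies inside Cd274, the gene of the immune checkpoint ligand PD-L1, at chr19:29373417-29384471 on the minus strand. It was at 93.8, 42.3 and 75.4 TPM in replicates 1, 2 and 3, and Cd274 at 109, 72.6 and 122 TPM. The member lay below the coding gene in each library, at 0.696 of its mean level, and the ranges of the 2 genes over libraries overlapped.

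The other 9 members completed the 12 most abundant, between 39.6 and 51.0 TPM on average, and their order is not resolved, since the spread of each over libraries is wider than the gaps between neighbours. Gm15726 (76.5, 44.4 and 32.2 TPM) lies inside Mid1, a microtubule-associated ubiquitin ligase gene at 253, 224 and 176 TPM. Gm37787 (77.4, 23.3 and 48.4 TPM) lies inside the surface receptor gene Slamf7 at 232, 122 and 203 TPM, and 72.3% of its exonic bases lie over coding exons. Gm47917 (66.5, 21.5 and 45.6 TPM) lies inside Man1a, which encodes a Golgi mannosidase, at 152, 66.5 and 161 TPM. These 3 members were below their hosts in each library, and 2 of them were lowest in replicate 2.

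Gm29083, whose promoter is printed above, was at 65.8, 28.2 and 34.8 TPM inside the co-receptor gene Nrp2, itself at 247, 159 and 202 TPM. Gm13556 was at 55.0, 26.2 and 38.0 TPM inside Dennd1a, a regulator of vesicle traffic, at 236, 139 and 195 TPM. AC142100.4 was at 53.7, 33.5 and 31.7 TPM inside Zfp516, a zinc-finger gene at 29.96, 30.42 and 29.78 TPM. Of these 3 members, AC142100.4 alone was above its host in each library in the first quantification. In the second it was at 81.2 TPM on average, below Zfp516 at 85.0 TPM.

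Gm17056 stood out by its partner. It overlaps the start of Lsmem1, a membrane protein gene, head to head at chr12:40198656-40201105 on the plus strand, and was at 53.7, 38.5 and 55.0 TPM. Lsmem1 was at 3.20, 0.12 and 0.07 TPM, so the member was far above it in each library. F630028O10Rik at chrX:96239926-96243636 has no coding gene across from it and was at 51.3, 20.8 and 52.4 TPM in replicates 1, 2 and 3. In TPM it was lowest in replicate 2, like most of the members named above. The order can differ in CPM, the counts scaled for depth that are used below to compare libraries. Gm40578 was at 256, 296 and 287 CPM and Gm17056 at 122, 125 and 141 CPM in replicates 1, 2 and 3, each lowest in replicate 1.

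By number of counts, Gm15601, Gm26811 and Tug1 also ranked among the first 8. Gm15601 overlaps the end of the phospholipase gene Ddhd1 and held 2352, 1292 and 1243 counts (46.6, 13.3 and 19.0 TPM). Gm26811 overlaps the end of the semaphorin receptor gene Plxna1 and held 1875, 1808 and 1338 counts (26.9, 13.4 and 14.8 TPM). Tug1, a well-known nuclear long noncoding RNA that overlaps the start of Morc2a, held 1519, 1521 and 1475 counts (26.8, 14.2 and 21.7 TPM), while Morc2a was at 14.6, 17.3 and 16.8 TPM.

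**Figure D1:**
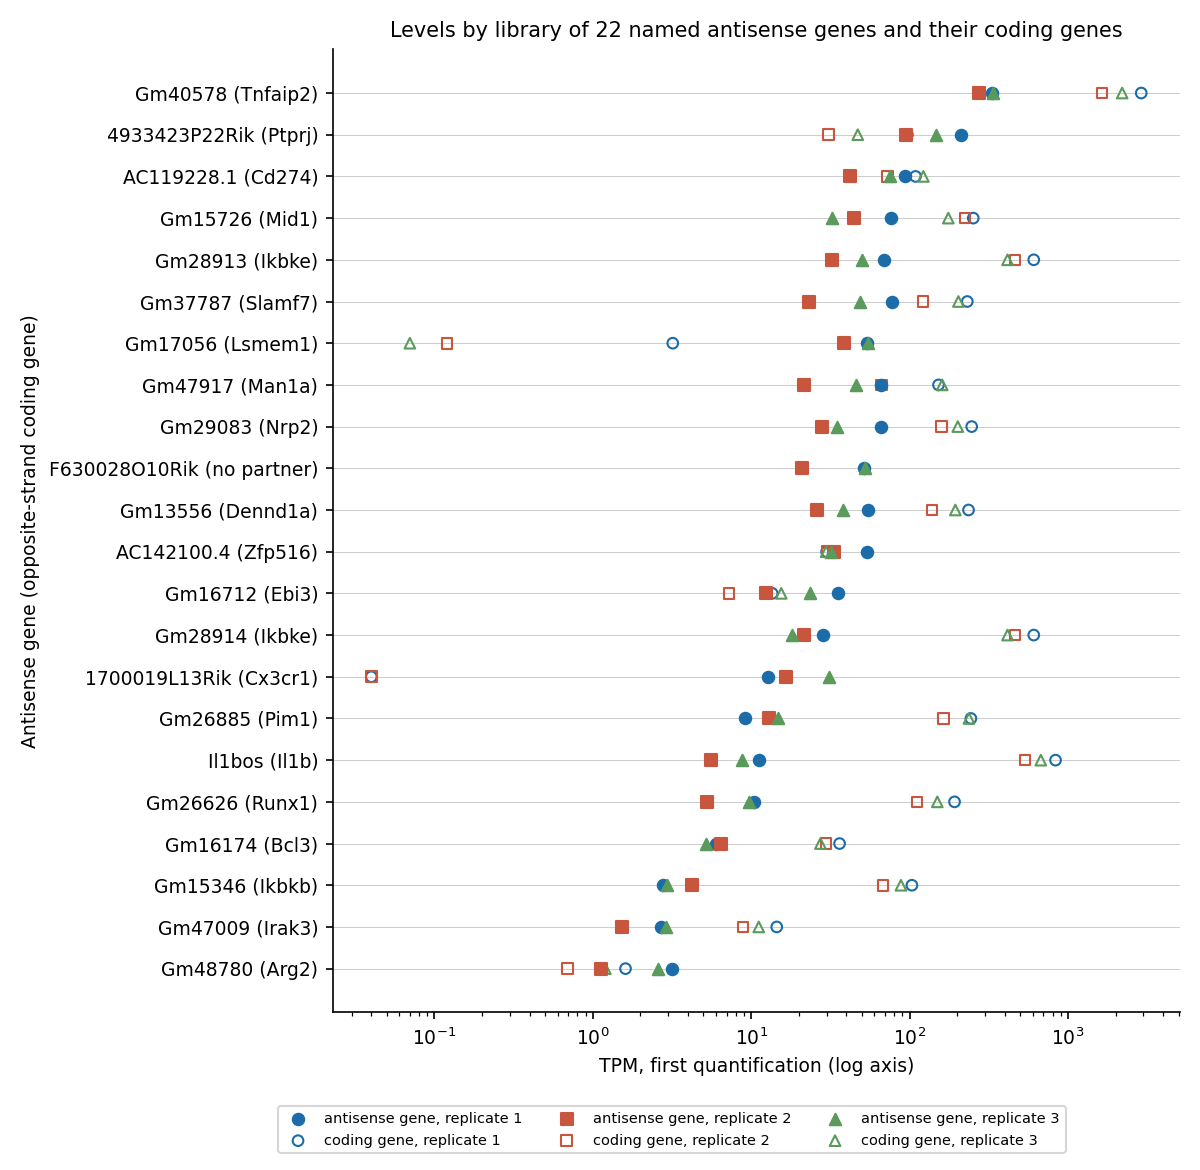
TPM of the first quantification (horizontal log axis) for 22 antisense genes (filled symbols) and the coding gene on the other strand (open symbols), with 1 symbol for each of the 3 libraries. The genes are the 12 with the highest mean level and those whose partner is on a response list. Values at 0 are not drawn. Gm40578 lies between 276 and 338 TPM, and Il1bos between 5.61 and 11.2 TPM below Il1b at 537 to 835 TPM.

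Of the 169 genes on 6 lists of response and identity genes, 12 (7.10%) had a member as the antisense gene across from them, beside 459 of 22028 protein-coding genes (2.08%). These 12 partners went with 13 members. The lists were drawn up with earlier results of these libraries known, and 157 of their 169 genes were detected, against 9665 of all 22028, so this is no independent comparison. By list, the counts were 4 of 38 NF-kB primary-response genes, 3 of 25 late lipopolysaccharide-response genes, 3 of 25 TLR4 signalling genes and 2 of 25 macrophage identity genes. Among 26 immediate early and 30 interferon genes there were 0. Csrnp1 (immediate early) and Icam1 (NF-kB) are overlapped by a member whose partner is another gene.

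Il1bos overlaps the gene of interleukin 1 beta, a main inflammatory cytokine, head to head. It runs along chr2:129369897-129375748 on the plus strand, and 0.839% of its exonic bases, the 25 in capitals above, lie over an Il1b exon. Il1bos was at 11.2, 5.61 and 8.77 TPM in replicates 1, 2 and 3, and Il1b was at 835, 537 and 675 TPM. Il1b was 80.0-fold higher on average, and both genes had the same order of libraries.

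The other NF-kB response genes with a member were Bcl3, Pim1 and Tnfaip2, the last described above. Gm16174 lies inside Bcl3, an atypical member of the IkB family, at chr7:19816553-19818625. It was at 6.00, 6.43 and 5.16 TPM on only 16, 28 and 15 counts, and Bcl3 was at 36.2, 29.8 and 27.4 TPM. Gm26885 overlaps the start of the kinase gene Pim1 and was at 9.13, 12.9 and 14.9 TPM, against 244, 164 and 237 TPM for Pim1. With 1700019L13Rik and Gm15346 it was 1 of 3 among the 13 members that were lowest in replicate 1 in TPM. In CPM, Gm40578 was also lowest in replicate 1, at the values given above.

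TLR4 signalling genes carried 4 members. Gm28913 and Gm28914 both lie inside Ikbke, the gene of the kinase IKK epsilon, at chr1:131263330-131266749 and chr1:131259507-131260553. Gm28913 was at 68.5, 32.5 and 50.2 TPM, Gm28914 at 28.6, 21.7 and 18.2 TPM, and Ikbke at 609, 462 and 416 TPM. The 2 members were each well below Ikbke in every library but did not follow the same order of libraries. Gm15346, inside Ikbkb (IKK beta, at 104, 68.2 and 88.3 TPM), was at 2.77, 4.24 and 2.93 TPM on 10, 26 and 12 counts. Gm47009, inside Irak3, which restrains TLR signalling, was at 2.69, 1.52 and 2.91 TPM on 14, 14 and 18 counts, and Irak3 at 14.5, 8.86 and 11.2 TPM. Both members rested on few counts and lay below their hosts in each library.

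Of the late-response genes, Cd274 is described above with AC119228.1. Gm16712 overlaps the end of Ebi3, a cytokine subunit gene, and was at 35.5, 12.3 and 23.4 TPM, above Ebi3 at 13.6, 7.25 and 15.5 TPM in each library. Gm48780 lies inside the arginase gene Arg2 and was at 3.15, 1.13 and 2.60 TPM, against 1.61, 0.69 and 1.20 TPM. These were 1.96-fold and 1.97-fold above these partners on average. Gm16712 also has 248 exonic bases over exons of Yju2, at 9.06, 7.31 and 10.1 TPM, beside 270 over Ebi3 exons.

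The macrophage identity genes Runx1 and Cx3cr1 had 1 member each. Gm26626 lies inside Runx1, a transcription factor gene, at chr16:92612814-92620105 and was at 10.5, 5.24 and 9.68 TPM, well below Runx1 at 192, 112 and 150 TPM. 1700019L13Rik lies inside Cx3cr1, the fractalkine receptor gene, at chr9:119983146-119988092 and was at 12.8, 16.7 and 30.9 TPM, where Cx3cr1 was at 0.04, 0.04 and 0 TPM. The member held 252, 608 and 758 expected counts. It also overlaps Csrnp1, an immediate early gene at 87.6, 61.9 and 118 TPM, by 1513 bases on the other strand, and 224 of its exonic bases lie over Csrnp1 exons, against 0 over Cx3cr1 exons. It was below Csrnp1 in each library.

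Across all members, 489 had a protein-coding partner, defined as the opposite-strand gene with the most overlap or, failing that, one starting within 1000 bases. In 289 (58.0%) the member lay inside the coding gene, 95 overlapped tail to tail, 82 overlapped head to head, 20 lay around the coding gene and 3 were head to head without overlap. The other 9 had no partner. The 489 members shared 459 partners, since 23 partners had at least 2 members and Arhgap10 had 4, so members of 1 partner are not independent. Among the 4 larger groups, members inside the coding gene had the highest median, 3.62 TPM, against 1.87 TPM tail to tail, 1.52 TPM for head-to-head overlap and 1.58 TPM around the coding gene. They were also shortest, with a median of 1559 exonic bases against 2731, 2707 and 2888. A minimum in counts asks a higher TPM of a shorter gene. Their partners had a median of 18.4 TPM, against 8.63, 8.66 and 1.34 TPM. The part of length and partner level in these medians was not tested. The median was 5.65 TPM in the 9 without a partner and 2.28 TPM in the 3 without overlap.

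Members were mostly less abundant than their partners. The median of log2((member TPM + 0.1)/(partner TPM + 0.1)) was -2.17, which is a partner 4.49-fold higher. By position, the partner was 5.04-fold higher for members inside it, 3.39-fold tail to tail and 5.36-fold for head-to-head overlap. The 20 members around a coding gene went the other way, with a median of 1.12 times the partner and 10 of 20 above it. Of all 489, 88 (17.996%) lay above their partner, beside 20.6% of 593 other detected noncoding genes with such a partner, so the share was near the background. The partner is only the opposite-strand coding gene with the most overlap: 60 members have more than 1 such gene, and 18 of the 88 lay below another of theirs. The 448 detected partners and the 41 undetected ones are both in this count, and 279 partners reached 10 TPM.

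The 4 members highest over their partners had a partner that was nearly silent in the first quantification, and each also overlaps another opposite-strand coding gene. The first was 1700019L13Rik, with Cx3cr1 as partner and Csrnp1 beside it. In the second quantification Cx3cr1 was at 2.14 TPM on average and 1700019L13Rik at 24.1 TPM. Gm27177 overlaps the start of Loxl2, a lysyl oxidase family gene, and was at 59.8, 13.1 and 30.9 TPM, where Loxl2 was at 0.03, 0.15 and 0.19 TPM. It also has 1700 exonic bases over exons of Entpd4b, at 3.00, 2.70 and 3.73 TPM. Loxl2 was at 5.86 TPM on average in the second quantification and Gm27177 at 33.2 TPM. Gm47079 was at 18.9, 5.87 and 8.79 TPM around the adhesion gene Icam4, which was listed at 0 in all 3 libraries. It also has 511 exonic bases over Icam1, an adhesion gene of the NF-kB list at 542, 300.1 and 450 TPM, and 116 over Icam5. Gm26642 was at 11.7, 9.09 and 7.88 TPM around Elf3, an ETS factor gene, at 0, 0.06 and 0.06 TPM. Its exons also cover 368 bases of Rnpep exons, a peptidase gene at 84.9, 86.8 and 81.1 TPM. Of the 4 members, 3 were thus below one of the coding genes across from them, and Gm27177 was above both. Among all pairs, 4 partners were listed at 0 in each library, and no fold is given for those.

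At the other extreme, the coding gene was abundant and the member between 0.5 and 3.83 TPM on average. A330084C13Rik was at 0.68, 0.44 and 0.38 TPM at the start of Nedd4l, a ubiquitin ligase gene at 144, 71.9 and 92.2 TPM. E530011L22Rik was at 2.57, 1.08 and 1.21 TPM at the end of Nktr, at 308, 211 and 263 TPM. Gm10851 was at 2.00, 1.51 and 0.88 TPM inside Pfkfb3, a regulator of glycolysis at 222, 234 and 181 TPM. Gm37305 was at 2.75, 3.97 and 4.76 TPM at the start of Ccnl1, a cyclin gene at 570, 394 and 497 TPM. The partner was 205-fold, 161-fold, 145-fold and 127-fold higher in these 4 pairs.

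**Figure D2:**
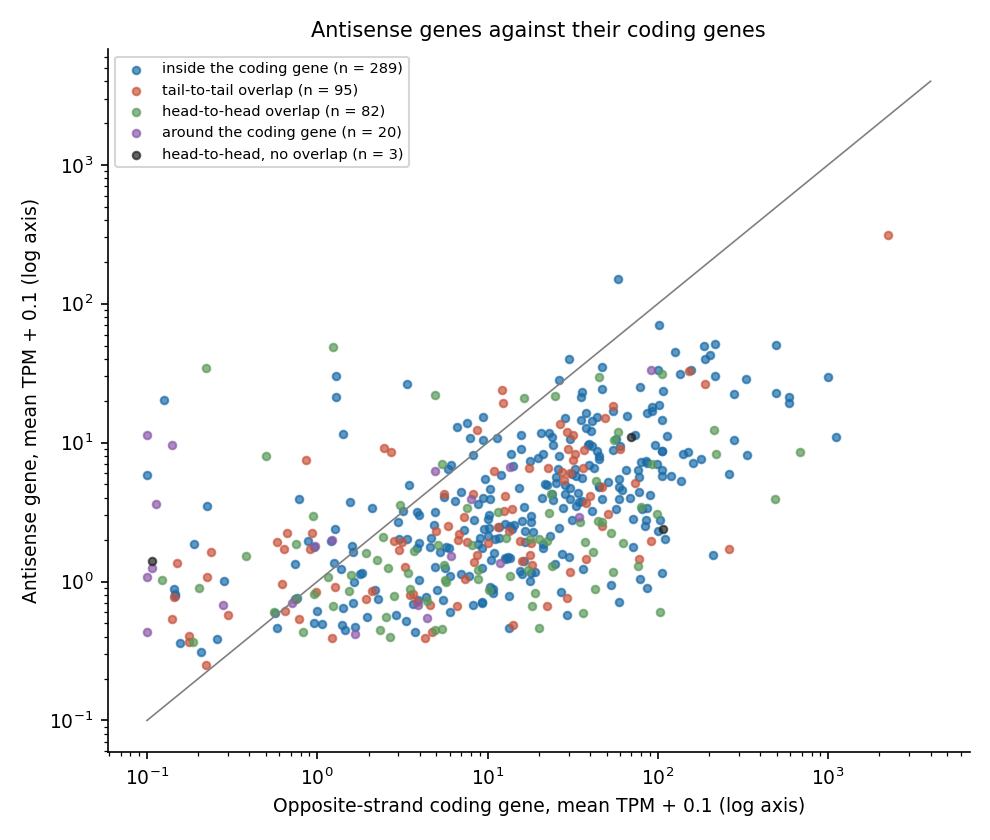
Mean TPM of each member (vertical log axis) against mean TPM of its opposite-strand coding gene (horizontal log axis), with 0.1 TPM added to both, for 489 pairs coloured by position. The line marks equal levels, and 88 points lie above it. The point at the upper right is Gm40578 with Tnfaip2.

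Intronic loci on both strands lay at similar distances below their hosts. Loci whose exons lie in introns of a single coding gene at 10 TPM or more were compared by strand, whether or not they were detected. Loci on the host's own strand can hold intron reads of the host whatever the strand setting, so they are set beside loci across from it. The 171 antisense loci of this kind, 81 of them members, were a median of 15.7-fold below their hosts (log2 -3.97), beside 13.3-fold (log2 -3.73) for 102 sense-intronic loci on the host's own strand. TEC loci were 9.07-fold below the host on the opposite strand (60 loci) and 6.81-fold on the same strand (401 loci). Processed pseudogenes were 12.6-fold below on the opposite strand (294 loci) and 10.2-fold on the same strand (155 loci). The 2 strands thus differed by less than the width of either distribution, and the middle 50% of the antisense loci ran from log2 -6.16 to -2.65.

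In the second quantification the same antisense loci were 8.005-fold and the sense-intronic loci 6.97-fold below their hosts. By replicate, the median log2 difference of the antisense loci was -3.87, -4.27 and -4.15, and that of the sense-intronic loci -3.50, -3.96 and -4.02. Tsix, the antisense gene left out of the set by name, was at 0.09, 0.09 and 0.12 TPM where Xist across from it was at 1026, 980.4 and 1135 TPM. That locus had little on the antisense side, while the intronic loci had similar levels on both strands. The part of host reads in the members' levels was not tested. The comparison of intronic loci was chosen after the data had been seen.

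**Figure D3:**
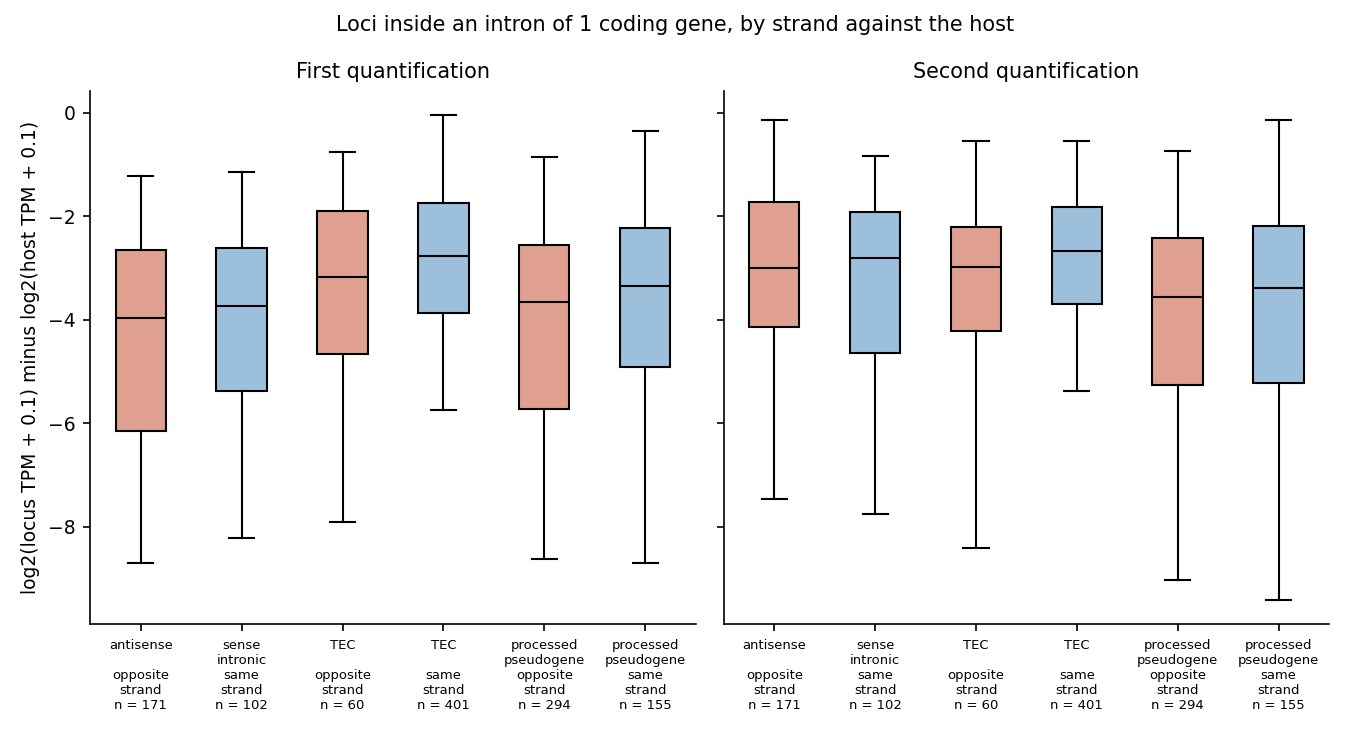
Level of intronic loci relative to their host gene, as log2(locus TPM + 0.1) minus log2(host TPM + 0.1), by class and strand, in the first (left) and second (right) quantification. Boxes give the middle 50% with the median, and whiskers the 5th and 95th percentiles. Opposite-strand and same-strand boxes overlap over most of their width in each class.

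Exons of 323 members (64.9%) overlap exons of coding genes on the other strand, and exons of 175 are clear of them. The first quantification gives a posterior SD of each count, which is the uncertainty in dividing reads between genes. As a share of the count it was a median of 0% in the 175 clear members and 1.01% in the 323 overlapping ones. In the 32 members with at least 50% of their exonic bases over coding exons the median was 10.8% and the highest value 24.2%, with Gm20659 inside the phosphatase gene Dusp3 at 23.5%. Of the 33 members at 10% or more, 16 were among these 32. The highest value of all, 34.9%, was that of Gm20687, named for this value after it had been seen, which has 49.2% of its exonic bases over coding exons and 1607 bases over exons of a coding gene on its own strand. The clear members had a median of 3.38 TPM, and the 35 members with at least 90% of their exonic bases outside coding gene bodies had 1.53 TPM.

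The 2 deposited quantifications gave different levels, in members much as in detected genes of any class. In the second, TPM was at least 1.5-fold higher in 298 of 498 members (59.8%), beside 54.5% of all detected genes, and at least 1.5-fold lower in 5, beside 1.02%. The median ratio was 1.71 in members, 1.57 in all detected genes, 1.65 in lincRNA genes, 1.27 in TEC loci and 1.60 in coding genes. It was 1.82 in members with clear exons and 1.09 in the 32 with at least 50% over coding exons. By count, 494 of the 498 members passed the minimum in the second quantification too, and 801 further antisense genes passed only there. The second held more counts over mouse genes, 16644525, 30070348 and 25184406 in replicates 1, 2 and 3. The same minimum is therefore not an equal threshold. The share of all genes passing only there was not counted, so the 801 have no background.

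The highest ratios of the second to the first quantification were in members below 1 TPM in the first. Gm47738, inside the helicase gene Mcm9, was at 0.97, 0.26 and 0.57 TPM in the first and at 111, 53.6 and 65.8 TPM in the second. Gm47578, around Csl, was at 0.25, 0.34 and 0.40 TPM in the first and at 40.3, 37.4 and 34.8 TPM in the second. Gm28370 and Gm26646 were 49.9-fold and 24.3-fold higher in the second. In the other direction, Gm20659 was at 3.92, 1.31 and 2.75 TPM in the first and listed at 0 in the second. Gm47123, inside the protease gene Ctsl, was at 5.37, 2.53 and 1.74 TPM in the first and at 0, 0.09 and 0 TPM in the second. CR974462.3 inside Brd2, a bromodomain gene, and Gm45894 at the end of Ankrd11 were at 0.421 and 0.601 of their first level. These 4 members that were lowest in the second had 74.3% to 100% of their exonic bases over coding exons.

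Among members with a partner on a list, the second quantification moved some levels little and others severalfold. Il1bos was at 15.8, 9.93 and 12.5 TPM in the second quantification, and Gm40578 at 359, 349 and 341 TPM. Gm16174 was at 59.0, 53.1 and 51.3 TPM, 9.15-fold above its first level, and Gm28913 at 242, 105 and 123 TPM, 3.10-fold above. F630028O10Rik, with no coding gene across from it, was at 48.0, 19.6 and 44.3 TPM, or 0.899 of its first level. Zeb2os inside Zeb2, chosen here by its name after its values had been seen, was at 38.0, 16.4 and 34.9 TPM in the first and 470, 190 and 268 TPM in the second.

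**Figure D4:**
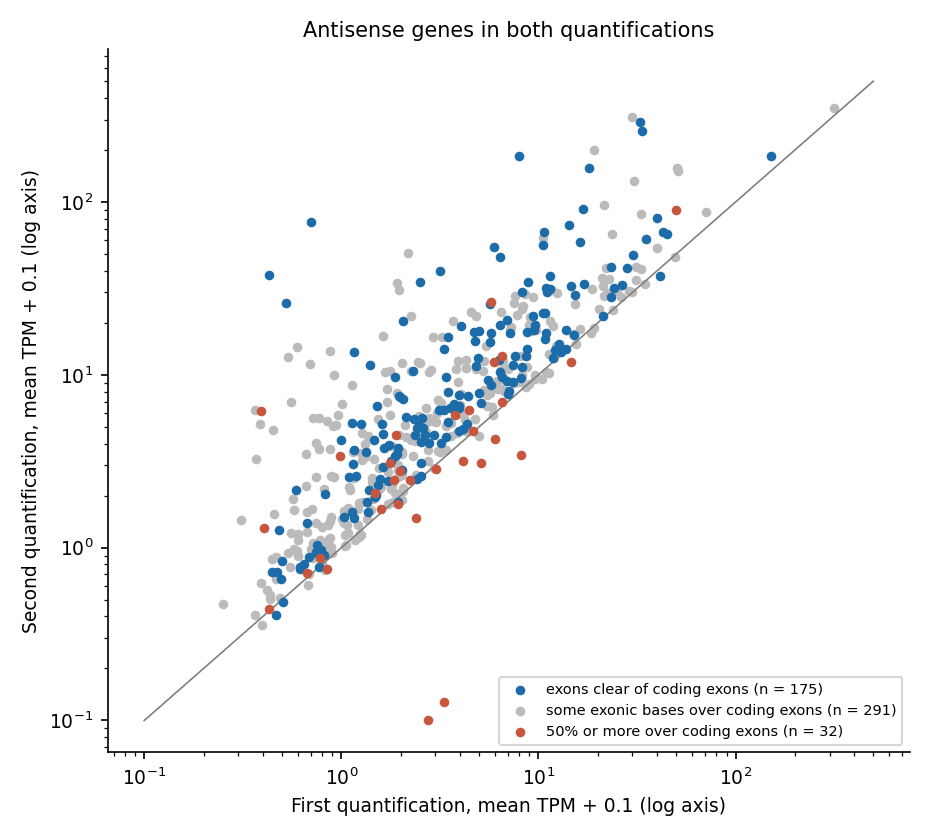
Mean TPM of each of the 498 members in the second (vertical log axis) against the first quantification (horizontal log axis), with 0.1 TPM added, coloured by the share of exonic bases over coding exons. Most points lie above the line of equal levels, and the 2 lowest, Gm20659 and Gm47123, belong to the 32 members with 50% or more.

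Between libraries, levels were compared as CPM, that is counts scaled for depth with TMM. The highest library was at least 2-fold above the lowest in 116 members (23.3%), beside 17.8% of all 12167 detected genes. Where the mean count reached 50 and counting error is smaller, it was 55 of 244 members (22.5%), beside 15.3%. The share was 23.2% in lincRNA genes, 27.5% in TEC loci and 15.2% in coding genes, so the members lay with the other noncoding classes. With 1 library on each side these are folds of size without a test.

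The variation had a direction. Of the 116 members, 88 were highest in replicate 1, and 77 were lowest in replicate 2. These directions were not counted for other detected genes past 2-fold, so they describe the members without a background. Without replicate 1 the number of members past 2-fold was 24, without replicate 2 it was 46, and without replicate 3 it was 87. With the same scaling, the range of a gene over fewer libraries cannot be wider, so a fall alone shows no direction. Over all 498 members, the median log2 shift from the mean of the libraries was 0.20, -0.14 and -0.06 in replicates 1, 2 and 3, and 361 members lay above their mean in replicate 1. The same medians were 0.25, -0.20 and -0.10 in lincRNA genes, 0.38, -0.26 and -0.11 in TEC loci, and -0.07, 0.05 and 0.04 in coding genes. Over all detected genes they were -0.0006, 0.0076 and 0.017. The number of genes above their mean was not counted outside the members. Replicate 1 was also the library of lowest depth and largest amount of starting RNA, and replicate 2 that of highest depth and smallest amount. With 1 library for each amount, depth, amount and biology cannot be told apart.

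A630072M18Rik varied most. It lies inside Rsbn1l at chr5:20950989-20956398 and was at 33.3, 7.74 and 44.0 CPM in replicates 1, 2 and 3, a range of 5.69-fold. Rsbn1l was also lowest in replicate 2, at 44.2, 31.4 and 40.9 CPM, and 95.05% of the member's exonic bases lie over coding exons. Gm11712, inside the lipid-transfer gene Pitpnc1, was at 1.02, 4.69 and 2.71 CPM on 12, 76 and 37 counts, the reverse of the common direction.

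The next 4 members by range were all highest in replicate 1. 4933431G14Rik, inside St3gal5, a ganglioside synthesis gene, was at 11.7, 2.73 and 2.79 CPM. Gm34885, inside Ccdc15, was at 3.73, 0.95 and 1.63 CPM. A530040E14Rik, inside C130026I21Rik, was at 18.6, 5.16 and 14.6 CPM, and Gm13964, inside the formin gene Fmn1, at 6.52, 1.81 and 2.06 CPM. Their hosts spanned less, as Fmn1 was at 536, 580 and 629 CPM, apart from C130026I21Rik, which was at 5.05, 1.36 and 3.50 CPM.

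Shifts of members and partners between libraries were also set side by side. Across 219 pairs whose 2 genes each averaged 50 counts or more, the Pearson correlation of the 2 shifts was 0.38, 0.49 and 0.34 in replicates 1, 2 and 3. In the 79 pairs with clear exons it was 0.28, 0.37 and 0.20 (Spearman 0.35, 0.38 and 0.08), and in the 140 with overlapping exons 0.42, 0.54 and 0.39 (Spearman 0.39, 0.49 and 0.36). Pairs share libraries, scaling and overlapping reads, and some share a partner, so these values describe the pairs and were not tested. The shifts had the same sign in 126, 132 and 111 of the 219 pairs, and in 43, 48 and 32 of the 79 pairs with clear exons. In replicate 3 the clear pairs thus shared little direction.

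**Figure D5:**
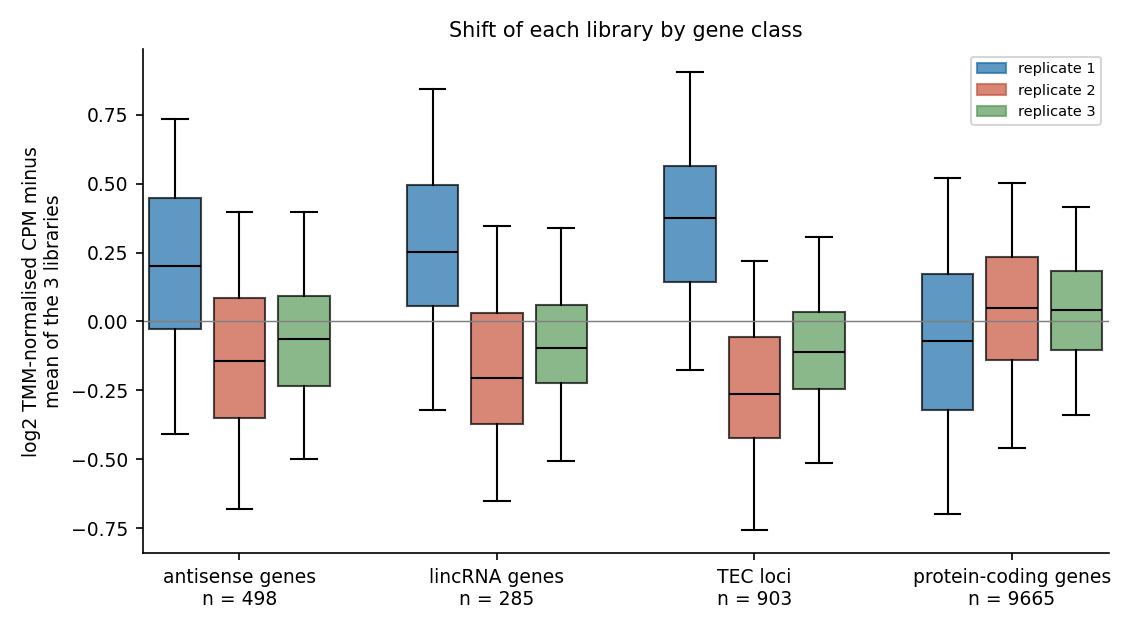
Shift of each library, as log2 TMM-normalised CPM minus the mean of the 3 libraries, for members and 3 other classes of detected genes. Boxes give the middle 50% with the median, and whiskers the 5th and 95th percentiles over genes. The median of the members is 0.20 in replicate 1 and -0.14 in replicate 2, between coding genes (-0.07 and 0.05) and TEC loci (0.38 and -0.26).

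The members with an "os" symbol include several across from genes of macrophage biology, chosen here by name after their values had been seen. Kdm6bos was at 38.2, 33.5 and 27.8 TPM inside Kdm6b, a histone demethylase gene at 125, 154 and 191 TPM. Aknaos was at 27.5, 11.6 and 16.5 TPM inside Akna at 112, 76.7 and 115 TPM. Igf1os was at 3.78, 2.54 and 3.79 TPM at the start of the growth factor gene Igf1 at 84.3, 69.5 and 85.5 TPM, and Dnmt3aos at 2.12, 1.56 and 1.32 TPM inside the DNA methyltransferase gene Dnmt3a at 68.6, 74.5 and 71.9 TPM. Each of these 4 was below its coding gene in each library. Rab10os, at 13.6, 9.15 and 13.7 TPM at the end of Rab10 at 13.0, 4.96 and 7.72 TPM, was above it in each library. Zfas1, a host of small nucleolar RNAs at the start of Znfx1, was at 33.0, 21.3 and 34.7 TPM, against 56.9, 29.8 and 48.3 TPM.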

How the data were processed

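Chromatin RNA of 3 libraries was analysed as 1 group. Expected counts (estimates that need not be whole), TPM, FPKM and a posterior SD of the counts come from the authors' gene tables of the first quantification, as their headers name them. A separate table deposited by the authors, called the second quantification, gives estimated counts and TPM for each transcript, and both were summed by gene here. Reads were quantified against mm10 and GENCODE M21, which the deposited notes name. Aligner, quantification tools and strand setting are not given in the sources used here.

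Rows that name no mouse gene were left out. Positions, classes and partners came from GENCODE M21. Expected counts were rounded for TMM scaling with edgeR 4.0.16 (R 4.3.3). Ranges and shifts are on log2 CPM with 0.5 added to each count. Ratios given as log2, and ratios between quantifications, have 0.1 TPM added to both values. Folds between a named member and its partner are plain ratios of mean TPM. With 1 group there is no comparison of conditions, and no p-values were computed. Depths were 10496703, 17687379 and 14806118 expected counts in replicates 1, 2 and 3. The scripts were tested on simulated data.

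Members and lists were chosen with earlier results of these data known. Named are the 12 members highest in TPM and 8 in count, those with a partner on a list, the 6 with the largest range, the 4 highest and 4 lowest over the partner and between quantifications, and the 5 just inside and 5 just outside the minimum. The comparison of intronic loci, the levels of further opposite-strand genes, the split of the posterior SD by exon overlap and the limit of 500 bases for promoters were added after the data had been seen. Alternatives were other count minimums, the second quantification, FPKM, rescaled TPM, other added values, DESeq2 1.42.0 size factors, library totals and leaving out each library.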

Additional observations from a re-analysis of the deposited data

How the results depend on the processing

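Depth limits the lower end: at 10 counts a level is loosely known, and a value of 0 allows up to 3 counts, counting error only. The second quantification raised the members from 498 to 1295, at the same minimum but on more counts in each library. Over the 498 members of the first, it raised the median TPM from 2.46 to 5.72. It also moved the median log2 ratio to the partner from -2.17 to -1.88. It lowered the members past 2-fold between libraries from 116 to 60, of which 41 were shared. TPM rescaled over protein-coding and long noncoding genes gave a median of 8.18. Adding 1 TPM gave a ratio to the partner of -1.81 and a median log2 ratio of the quantifications of 0.61 instead of 0.78. Library totals gave 194 members past 2-fold, 109 of them shared, and a shift of 0.42 in replicate 1, but moved the median of all detected genes by 0.22, -0.11 and -0.08. DESeq2 size factors gave 114 past 2-fold, 113 of them shared. A mean of at least 50 counts left 55. With counts scaled to a fixed library total, 190 members were 1.5-fold higher in the second quantification, against 298. In the alternatives for which a ratio to the partner is given here, the second quantification and 1 TPM added, the partner stayed above the member at the median. The cause of these differences was not tested.

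Leaving out each library in turn gave 522 to 540 members. The median of 2.12 to 2.79 TPM and the share of counts of 0.507% to 0.674% are not of these re-chosen sets. They average the remaining libraries over the 498 members chosen with all 3 libraries. The log2 ratio to the partner was -2.32 to -2.10. Leaving out a library gave 24 to 87 members past 2-fold and 286 to 309 that were 1.5-fold higher in the second quantification. The median log2 ratio of the quantifications was then 0.75 to 0.83. The shift was 0.14 to 0.16 in replicate 1 and -0.16 to -0.048 in replicate 2. In replicate 3 it was -0.14 without replicate 2 and turned to 0.048 without replicate 1. Other count minimums gave 662 (5 counts) and 352 (20 counts) members. No paired analysis was possible because the libraries form 1 group.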
